A study of Homo sapiens with 9 samples.

Results

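The genes described here are the integrin chains of leukocytes in Z138, a cell line established from mantle cell lymphoma, a cancer of mature B cells. The set has 10 chains, listed by function around ITGB7: the alpha chains ITGA4, ITGA5, ITGA6, ITGAE, ITGAL, ITGAM and ITGAX and the beta chains ITGB1, ITGB2 and ITGB7. Of these, 9 have a row among the 16586 genes of the table, and ITGA5 is not analysed here. The list was chosen by function with the ITGB7 difference between groups, a measured value of these same libraries, already known, so the ITGB7 values are a description and carry no p-value. RNA-seq was run on 9 libraries in 3 groups of 3: wild-type Z138, Z138 with SOX11 knocked out (SOX11 is a transcription factor that most mantle cell lymphomas express), and knockout cells into which SOX11 was returned, called the rescue. All groups share the Z138 background, and the rescue also carries the knockout. The labels do not say whether the knockout or the rescue was a single clone, how SOX11 was returned, or whether the replicates were separate cultures, so p-values measure only the spread between these libraries. Each library has a batch label equal to its replicate number.

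Integrins are adhesion receptors made of an alpha and a beta chain that pair inside the cell before they reach the surface, and the partner decides which ligand is bound. ITGB7 has only a pair of known partners. With ITGA4 it forms the gut-homing receptor of lymphocytes, which binds the mucosal addressin MADCAM1, and with ITGAE it forms the receptor for E-cadherin (CDH1) on epithelium. ITGA4 also pairs with ITGB1, as the receptor for VCAM1 and fibronectin. ITGB2 pairs with ITGAL to form LFA-1, which binds the ICAM proteins, and with ITGAM and ITGAX to form complement receptors of myeloid cells.

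The promoters of ITGB7 and of its 2 possible alpha partners are shown because these are the chains that the comparison turns on. They are RefSeq windows on GRCh38.p14 from 250 bases before to 50 bases after the gene's start, printed 5′ to 3′ on the gene's strand: chr12:53207202-53207501, minus strand, for ITGB7; chr2:181457136-181457435, plus strand, for ITGA4; and chr17:3801139-3801438, minus strand, for ITGAE. Capitals mark a match, on either strand, to AACAAT or AACAAAG (core forms bound by SOX factors), TGTGGT (RUNX) or GAGGAA (ETS factors such as PU.1).
ITGB7: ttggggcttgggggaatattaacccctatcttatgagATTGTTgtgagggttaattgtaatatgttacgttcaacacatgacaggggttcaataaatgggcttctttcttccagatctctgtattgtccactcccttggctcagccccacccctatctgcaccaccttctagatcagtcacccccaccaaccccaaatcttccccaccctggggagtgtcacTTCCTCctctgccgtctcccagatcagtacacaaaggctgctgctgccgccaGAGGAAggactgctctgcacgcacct
ITGA4: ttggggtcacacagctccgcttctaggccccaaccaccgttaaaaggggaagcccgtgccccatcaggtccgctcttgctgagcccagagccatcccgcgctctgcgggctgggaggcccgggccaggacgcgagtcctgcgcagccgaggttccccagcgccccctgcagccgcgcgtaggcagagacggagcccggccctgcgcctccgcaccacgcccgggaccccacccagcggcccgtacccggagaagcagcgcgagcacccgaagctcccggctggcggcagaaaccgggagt
ITGAE: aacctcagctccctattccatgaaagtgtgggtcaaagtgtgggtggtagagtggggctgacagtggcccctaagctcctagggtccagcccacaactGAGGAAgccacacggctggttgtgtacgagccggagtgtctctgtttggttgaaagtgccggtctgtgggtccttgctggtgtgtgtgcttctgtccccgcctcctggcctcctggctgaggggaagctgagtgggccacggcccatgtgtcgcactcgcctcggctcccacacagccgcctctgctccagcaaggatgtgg
The ITGB7 window held 1 AACAAT, read on the opposite strand as ATTGTT at bases 38 to 43, and 2 copies of GAGGAA, at bases 223 to 228 (opposite strand, TTCCTC) and 275 to 280. The ITGAE window held 1 GAGGAA, at bases 99 to 104, and the ITGA4 window held none of the 4 motifs. Of 35116 windows of the same length, 10.1% held AACAAT, 5.20% AACAAAG, 13.1% TGTGGT and 27.9% GAGGAA, and a match describes the letters only. Promoter windows were matched for 7 of the 10 chains.

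Values are normalized counts, recovered by inverting the deposited log2 scale, in which 1 read is worth 0.857 to 1.13 normalized counts. Estimated depth was 30800000 to 40800000 reads per library. SOX11 itself checks the labels. It stood at 3800, 3845 and 3003 in the wild-type libraries, at 901, 1335 and 862 in knockout cells and at 12818, 13849 and 12715 in the rescue. The groups did not overlap: transcript remained in the knockout, and every rescue library lay above every wild-type library. The line's identity was checked with marker lists. Of 10 B cell markers, 9 reached a CPM of 1 in at least 1 library (CPM is a gene's count scaled to the same total in every library), with MS4A1 the highest, and CCND1, the cyclin overexpressed in mantle cell lymphoma, stood at 3041 to 3823 CPM, while CD5 stayed far under 1 CPM in every library. Of 9 stromal, epithelial and endothelial markers, 6 had a row and 3 reached 1 CPM (COL1A1, EPCAM and PECAM1), with COL1A1 the highest. The 6 summed to 35.4 to 44.6 CPM in the wild type, 41.0 to 49.3 in knockout cells and 27.1 to 32.2 in the rescue. The source of these transcripts was not tested. Genes were tested where CPM reached 1 in at least 3 libraries, which kept 11542 genes. Of the 9 chains with a row, 6 passed: ITGB7, ITGA4, ITGAE, ITGAL, ITGB1 and ITGB2. Adjusted p-values are from limma over all 11542 genes, and a gene was called where this value was under 0.05. The 3 comparisons share libraries and are not independent of each other.

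ITGB7, the chain around which the set was drawn up, differed most of the set in both comparisons with the knockout. Its normalized count was 351, 426 and 419 in the wild type, 1382, 1293 and 1372 in the knockout, and 354, 324 and 422 in the rescue. The lowest knockout library was therefore far above every other library, and the wild-type and rescue ranges overlapped. The group means were 399 ± 41.3, 1349 ± 48.7 and 367 ± 50.3 (SD, n = 3 each). The knockout mean was 3.38-fold above the wild type, and the ratio within the batches was 3.93, 3.03 and 3.28. On the deposited log2 scale, which compresses low counts, the difference was 1.00 (SE 0.0604). The rescue mean was 3.68-fold below the knockout (log2 difference -1.05) and 0.920 of the wild type. ITGB7 (ENSG00000139626.16) lies on GRCh38 chromosome 12 from 53191318 to 53207307, minus strand. The zinc finger gene ZNF740, on the opposite strand, overlaps it by 3824 bases. This overlap is of gene spans, and shared transcript bases were not examined. Whether counting used strand is not stated, and any reads from shared bases are uncertain. ZNF740 itself averaged 3069 in the wild type, 2725 in knockout cells and 2622 in the rescue.

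**Figure D1:**
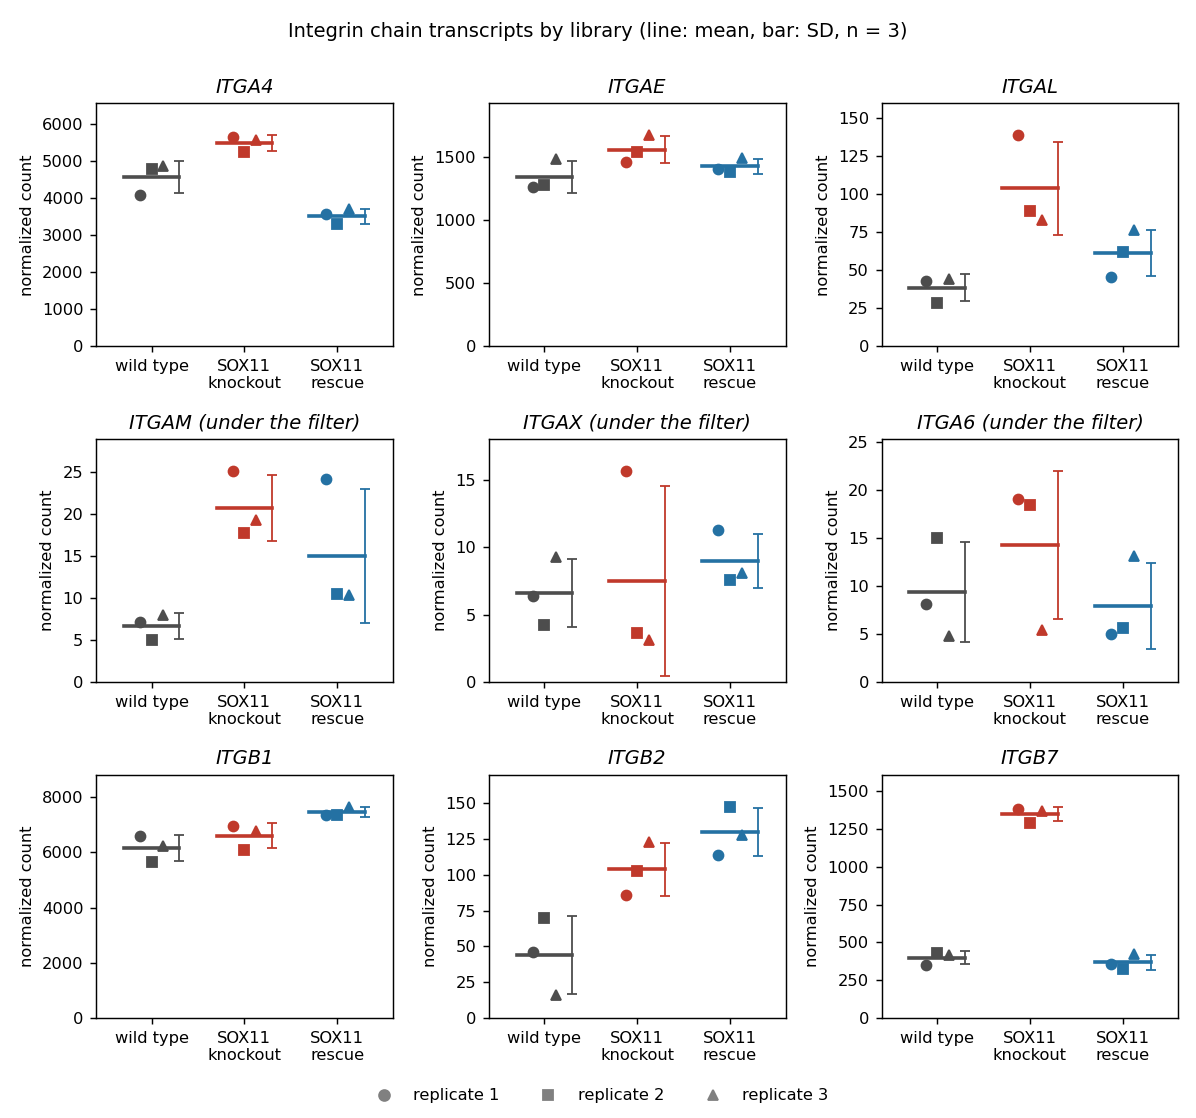
Normalized count (vertical axes, linear, starting at 0) of the 9 chains with a row, by group, with 1 point per library, a line at the mean and a bar for the SD (n = 3). ITGB7 stands at 1293 to 1382 in the knockout libraries and at 324 to 426 in the other 6, while ITGA4 is lowest in the rescue and highest in the knockout.

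ITGA4, the alpha chain that ITGB7 and ITGB1 can both use, was abundant and moved less. It stood at 4082, 4783 and 4864 in the wild type, 5659, 5261 and 5579 in knockout cells and 3563, 3295 and 3698 in the rescue. The 3 groups did not overlap, with the rescue lowest and the knockout highest, the opposite order to that of SOX11. Of all tested genes, 1.93% (223 genes) had 3 groups apart in this order and 2.98% in the reverse order. The knockout was 1.20-fold above the wild type (log2 difference 0.23, SE 0.0654, adjusted p = 0.0376), and ITGA4 rose there by a margin that depended on single libraries. The rescue fell 1.56-fold below the knockout (log2 difference -0.55, adjusted p = 1.33e-04), and this call held in all 21 alternatives run, with an adjusted p of at most 0.0079. The rescue also lay 1.30-fold below the wild type (log2 difference -0.32, adjusted p = 0.0195). The knockout call was lost without wild-type library 1 (adjusted p = 0.114), any of the 3 knockout libraries (0.130, 0.0514 and 0.108) or rescue library 1 (0.0535). It was also lost without batch 1 (0.367, the highest value) or 3 (0.138). Quantile normalization (0.0780) and a fit of only the 2 groups (0.0626) lost it too. The rescue against wild type call was lost without wild-type library 2 (0.0583) or 3 (0.0658) or rescue library 1 (0.0534) or 2 (0.0876). It was also lost without batch 1 (0.0522), 2 (0.139) or 3 (0.205), and when only the 2 groups were fitted (0.0518). ITGA4 (ENSG00000115232.14) lies on chromosome 2 from 181457202 to 181536187, plus strand.

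ITGAE, the alpha chain of the E-cadherin receptor (CD103) and the other partner of ITGB7, was expressed in every library. It stood at 1262, 1277 and 1489 in the wild type, 1465, 1543 and 1677 in knockout cells and 1412, 1382 and 1496 in the rescue. The groups overlapped in all 3 pairs. The knockout mean was 1.16 times the wild-type mean (log2 difference 0.15, SE 0.0610, adjusted p = 0.134). With the replicate number as a block in the fit this became a call (adjusted p = 0.0338). The rescue did not pass the test against the knockout (adjusted p = 0.342) or the wild type (adjusted p = 0.668). ITGAE (ENSG00000083457.12) lies on chromosome 17 from 3714628 to 3801243, minus strand. The span of the kinase gene HASPIN overlaps it on the opposite strand. HASPIN averaged 1468, 1655 and 1324 in the 3 groups. Whether transcripts of these genes share bases was not examined, so an effect on the ITGAE count is not shown.

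ITGB1, the beta chain that most alpha chains share, was the most abundant integrin transcript per length of those in the set. It stood at 6589, 5647 and 6228 in the wild type, 6966, 6100 and 6767 in knockout cells and 7361, 7357 and 7656 in the rescue. The wild-type and knockout libraries overlapped (1.07-fold, adjusted p = 0.389), and the 3 rescue libraries were above all the others. The rescue was 1.21-fold above the wild type (log2 difference 0.25, SE 0.0626, adjusted p = 0.0484). This call was lost in 17 of 21 alternatives, with adjusted p up to 0.348. It was lost without wild-type library 2 (0.122) or 3 (0.0894), knockout library 1 (0.0663) or 3 (0.0735), or any rescue library (0.108, 0.123 and 0.181). Against the knockout the rescue was 1.13-fold higher, with an adjusted p of 0.0950 without the replicate block and 0.0234 with it. ITGB1 (ENSG00000150093.19) lies on chromosome 10 from 32900319 to 33005792, minus strand.

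The chains of LFA-1 were at low levels. ITGAL (chromosome 16, 30472658 to 30523185, plus strand) stood at 42.7, 28.3 and 44.3 in the wild type, 139, 89.0 and 83.1 in knockout cells and 45.6, 62.1 and 76.2 in the rescue. The 3 groups did not overlap, with the rescue between the other two. ITGAL rose 2.70-fold in the knockout (log2 difference 0.28, SE 0.0607, adjusted p = 0.0102). This call held when any single library was left out and was lost without batch 1 (adjusted p = 0.0750), batch 2 (0.0578) or batch 3 (0.0526). The rescue mean was 1.69-fold below the knockout (adjusted p = 0.0745) and 1.60-fold above the wild type (adjusted p = 0.379), and neither passed the test.

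ITGB2 (ENSG00000160255.18, chromosome 21, 44885953 to 44931989, minus strand), the beta chain of LFA-1, did not follow ITGB7. It stood at 45.8, 70.1 and 15.7 in the wild type, 85.8, 102 and 123 in knockout cells and 114, 147 and 128 in the rescue. All 6 knockout and rescue libraries were above the 3 wild-type libraries, and those 2 groups overlapped. It rose 2.36-fold in the knockout (log2 difference 0.27, SE 0.0740, adjusted p = 0.0336) and 2.96-fold in the rescue (log2 difference 0.36, adjusted p = 0.0202), both against the wild type. The rescue did not differ detectably from the knockout (1.25-fold, log2 difference 0.09, adjusted p = 0.452). The wild-type spread was wide, and the knockout to wild type ratio was 1.87, 1.46 and 7.82 within the batches. The knockout call was lost without wild-type library 1 (adjusted p = 0.0674) or 3 (0.0855), any knockout library (0.0536, 0.0774 and 0.115) or rescue library 3 (0.0506). It was also lost when only the 2 groups were fitted (0.0591). The rescue call was lost without rescue library 2 (0.0850) or 3 (0.0739). Without batch 1 (0.135 and 0.133) or batch 3 (0.280 and 0.176) the knockout and rescue calls were both lost.

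**Figure D2:**
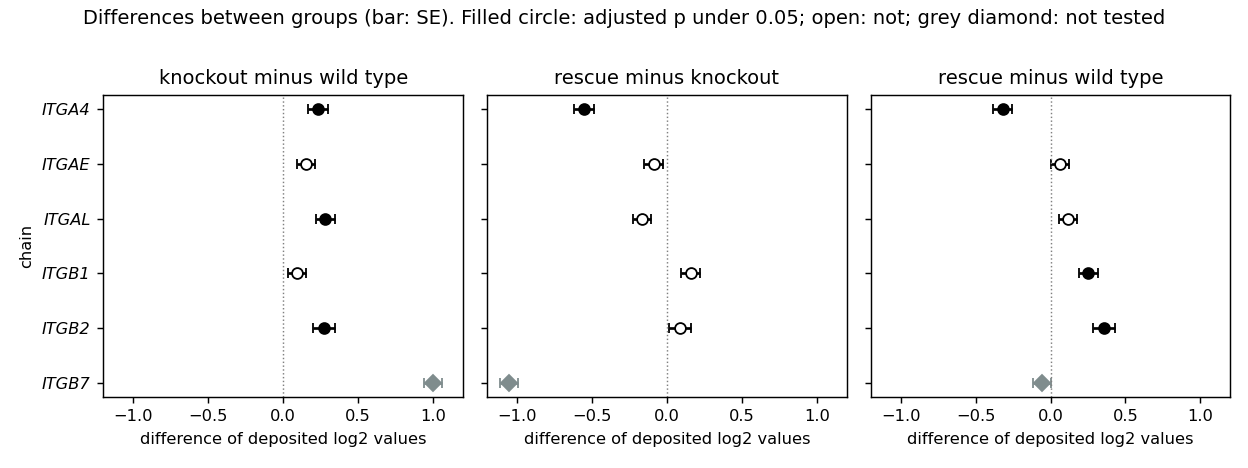
Difference between group means on the deposited log2 scale (horizontal axes) for the 6 chains that passed the filter, with bars for the SE; filled circles have an adjusted p under 0.05, open circles do not, and the grey diamonds are ITGB7, given with no test. ITGB7 lies at 1.00 and -1.05 in the comparisons with the knockout and at -0.05 between rescue and wild type. The tested chains lie between -0.55 and 0.36. The scale compresses low counts: ITGB2 at 0.36 (rescue against wild type) was 2.96-fold, and ITGAL at 0.28 (knockout against wild type) was 2.70-fold.

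Of the 5 tested chains other than ITGB7, 3 rose and none fell in the knockout against the wild type (ITGA4, ITGAL and ITGB2), where 12.7% of all tested genes were called, 5.36% upward and 7.37% downward. In the rescue against the knockout 1 fell (ITGA4) and none rose, beside 22.1% of all genes called, 11.5% upward and 10.7% downward. In the rescue against the wild type 2 rose (ITGB1 and ITGB2) and 1 fell (ITGA4), beside 4.07% of all genes, 2.3% upward and 1.78% downward. At an unadjusted p under 0.05 in limma, the counts were 4 higher and 0 lower, 1 higher and 2 lower, and 2 higher and 1 lower. The share of all genes at that unadjusted threshold was not computed, so these counts have no background beside them. Without batch 1 or without batch 3, which leaves 2 libraries a group, the knockout count was 0, and the rescue against wild type count was 0. The median log2 difference over the 5 chains was 0.23, -0.09 and 0.12 in these comparisons, and over all tested genes 0.0048, -0.0065 and 0.00. With the replicate block 4 chains rose in the knockout, beside 21.5% of all genes called in either direction (1172 upward and 1309 downward of 11542). In the rescue against the knockout 1 rose and 1 fell, beside 31.2% in either direction. The blocked fit called 8.06% of all genes in the rescue against the wild type. The list was made with results of these libraries known, and nothing is read from these shares. The groups did not overlap for 29.5%, 41.8% and 20.8% of all genes in the same order of comparisons.

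The other 3 chains stayed under 1 CPM in every library and were not tested. ITGAM, the alpha chain of the myeloid complement receptor with ITGB2, stood at 7.14, 4.95 and 7.97 normalized counts in the wild type, 25.2, 17.7 and 19.2 in knockout cells and 24.2, 10.5 and 10.4 in the rescue. Its knockout libraries were all above the wild type, at 3.10-fold of the mean, on 4.71 to 28.5 reads per library over the 9 libraries. When all genes were tested without the filter, this difference had an adjusted p of 0.0620. ITGAX (chromosome 16, 31355134 to 31382997) ranged over 0.0903 to 0.444 CPM and ITGA6 (chromosome 2, 172427354 to 172506282), the laminin receptor chain, over 0.139 to 0.541 CPM, with overlapping groups in every pair. At this depth 3 reads correspond to 0.0735 to 0.0975 CPM, so these levels are near the limit of what can be counted.

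ITGB2, ITGAL and ITGAM are also expressed by myeloid and T cells, so markers of those cells are given beside them. Of 11 myeloid and granulocyte markers, 6 had a row and none reached 1 CPM. Their summed level was 0.699 to 0.928 CPM in the wild type, 1.16 to 1.89 in knockout cells and 1.35 to 2.09 in the rescue, and CD14 stayed at or under 0.101 CPM. Of 10 T and NK cell markers, 9 had a row and 5 reached 1 CPM (CD3E, CD3G, TRAC, NKG7 and KLRD1). Their summed level was 12.5 to 15.2 CPM in the wild type, 17.8 to 21.5 in knockout cells and 16.2 to 18.4 in the rescue, with CD3D at or under 0.136 and CD8B at or under 0.0934 CPM. Both sums were higher in the knockout than in the wild type, as ITGB2 and ITGAL were. Between knockout and rescue the ranges of each sum overlapped. There the mean of ITGAL went from 104 to 61.3 and that of ITGB2 from 104 to 130. The part of other cells in these differences was not tested. In bulk RNA, more cells of a type and more RNA per cell cannot be told apart.

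To compare the chains with each other, levels were taken as CPM per kilobase, using the median length of a gene's annotated transcripts in GENCODE 29, with the longest transcript as an alternative. The median includes short fragment transcripts, and the lengths actually expressed were not used here. In the wild type, ITGB1 led at 308 ± 27.6 CPM per kilobase, followed by ITGA4 at 114 ± 10.4, ITGAE at 52.2 ± 5.44 and ITGB7 at 15.2 ± 1.50 (SD, n = 3). ITGAL at 1.95 ± 0.471 and ITGB2 at 1.93 ± 1.18 came next and did not differ beyond their spread. ITGAM averaged 0.342, ITGA6 0.272 and ITGAX 0.124. ITGA6 overlapped ITGAM and ITGAX, while every ITGAM library was above every ITGAX library, though not by the longest transcript. By the longest transcript the first 4 kept this order (46.3, 31.0, 9.90 and 3.95). In the knockout ITGB7 stood at 51.4 ± 2.31 and ITGAE at 60.7 ± 4.59, whereas by the longest transcript ITGB7 was the higher (13.4 against 11.5), so the order of that pair depends on the length used.

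**Figure D3:**
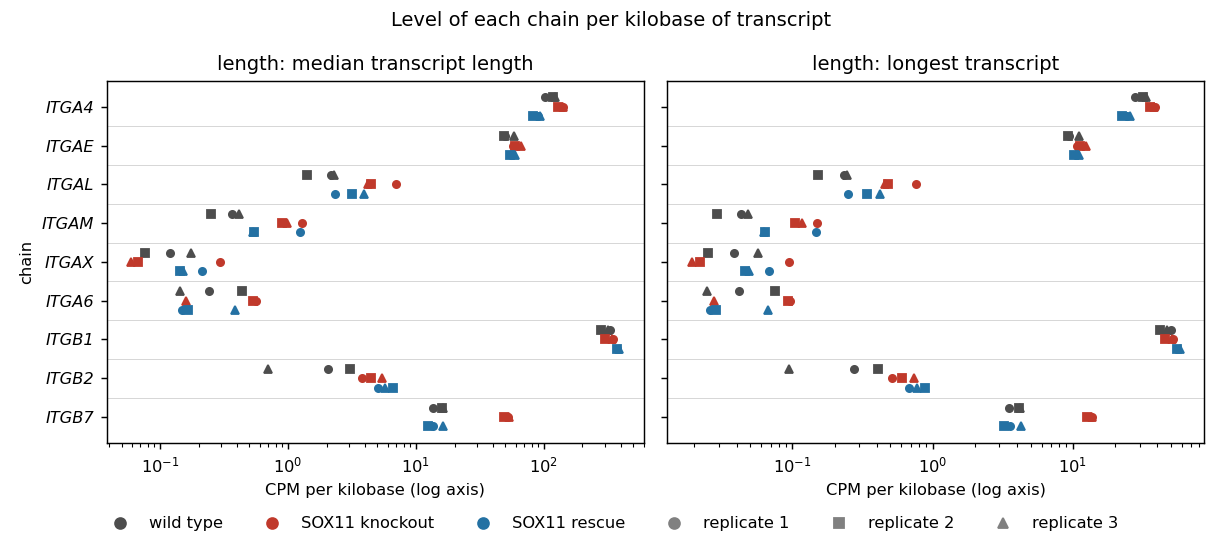
Level of each chain in CPM per kilobase (log axis), by median transcript length on the left and by longest transcript on the right, with 1 symbol per library, colored by group. ITGB1 and ITGA4 lead in both panels, and ITGB7 moves from 15.2 in the wild type to 51.4 in the knockout on the left.

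These levels bear on which pairs the transcripts could supply. ITGB7 made up 3.91%, 5.45% and 4.89% of ITGB1 plus ITGB7 in the wild type, 13.2%, 13.9% and 13.4% in knockout cells and 3.54%, 3.26% and 4.04% in the rescue. The knockout libraries were all above the others, with means of 4.75% ± 0.779, 13.5% ± 0.397 and 3.62% ± 0.398 (SD, n = 3). By the longest transcript these means were 7.93%, 21.2% and 6.08%. In the knockout ITGB1 remained 6.41 times as abundant as ITGB7 per kilobase (3.71 times by the longest transcript), against 20.4 times in the wild type and 26.9 times in the rescue (11.8 and 15.6 by the longest transcript). ITGB7 per ITGA4 averaged 0.134 ± 0.00267 in the wild type, 0.377 ± 0.00153 in knockout cells and 0.160 ± 0.0136 in the rescue, and by the longest transcript 0.127, 0.358 and 0.152. ITGA4 transcript thus exceeded ITGB7 transcript in every library by both lengths.

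ITGB7 per ITGAE was 0.273, 0.328 and 0.276 in the wild type, 0.926, 0.823 and 0.803 in knockout cells and 0.246, 0.230 and 0.277 in the rescue. The pair was closer to equal in the knockout, with means of 0.292 ± 0.0305, 0.851 ± 0.0661 and 0.251 ± 0.0238, or 0.401, 1.17 and 0.344 by the longest transcript. ITGB1 per ITGA4 was 2.73 ± 0.457 in the wild type, 2.41 ± 0.0749 in knockout cells and 4.27 ± 0.191 in the rescue, where all 3 libraries were above the other 6. By the longest transcript these means were 1.50, 1.33 and 2.35. For LFA-1, ITGB2 per ITGAL was 1.14 ± 0.941, 0.944 ± 0.378 and 1.90 ± 0.383, with every rescue library above every knockout library and a wild-type spread that overlapped both. These ratios are of transcripts, and surface protein was not measured.

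**Figure D4:**
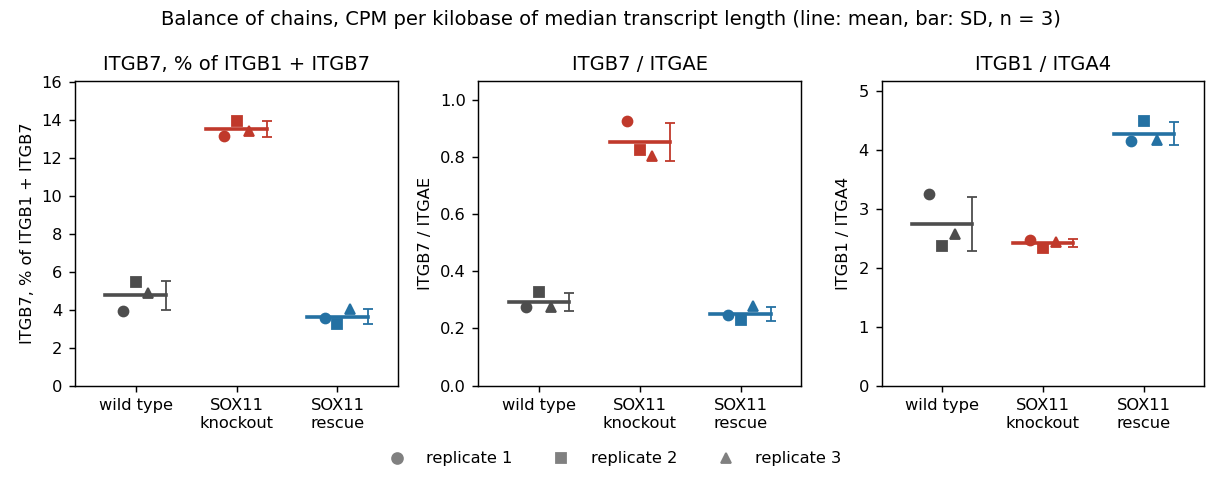
Ratios of chains in CPM per kilobase of median transcript length (vertical axes, linear, starting at 0), by group, with 1 point per library, a line at the mean and a bar for the SD (n = 3). The knockout stands apart for the share of ITGB7 (13.5% on average) and for ITGB7 per ITGAE (0.851), and the rescue for ITGB1 per ITGA4 (4.27).

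The chains followed SOX11 in different ways across the 9 libraries. ITGB7 was high only in the 3 knockout libraries and did not separate the wild type from the rescue, although SOX11 was higher in the rescue. ITGA4 decreased stepwise from knockout to wild type to rescue. ITGB1 was highest in the rescue, and ITGB2 was lowest in the wild type, the group with the middle SOX11 level. The labelled groups form separate clusters on the SOX11 axis, so no correlation with SOX11 was tested.

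**Figure D5:**
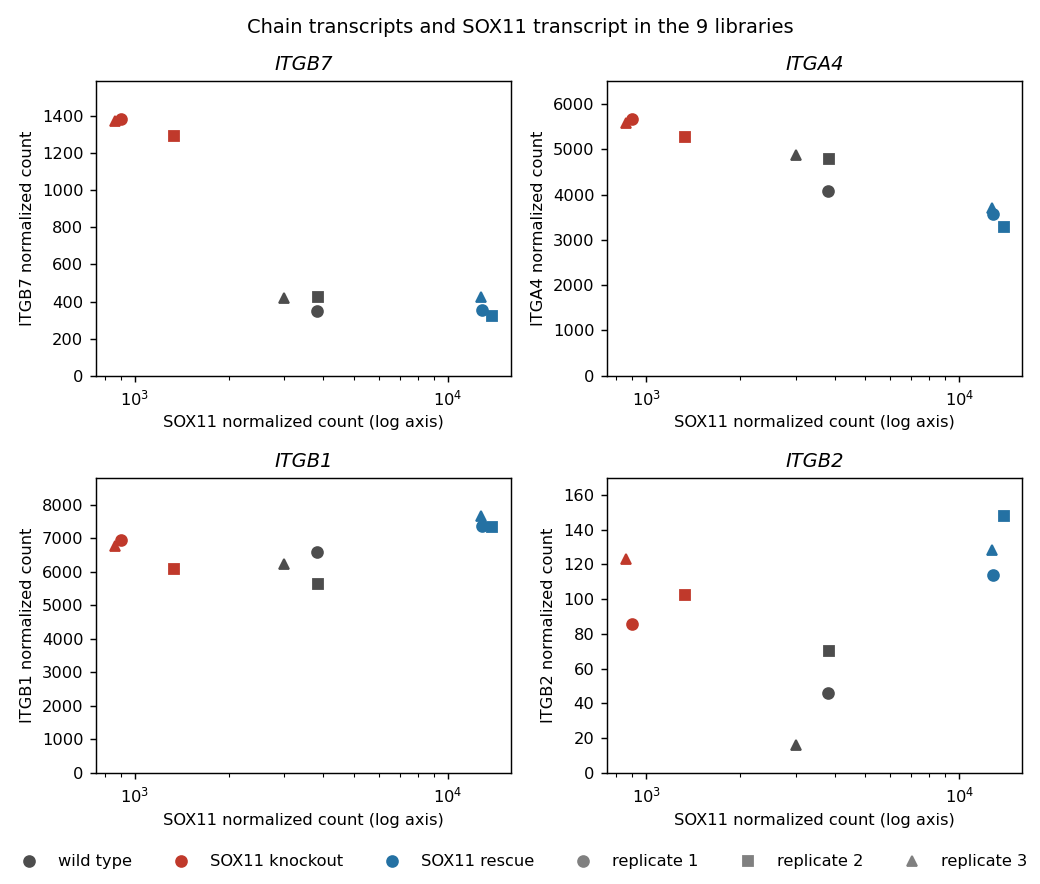
Normalized count of ITGB7, ITGA4, ITGB1 and ITGB2 (vertical axes, linear, starting at 0) against that of SOX11 (log axis) in the 9 libraries, colored by group with a symbol per replicate. ITGB7 is at 1293 to 1382 in knockout cells and at 324 to 426 elsewhere, ITGA4 steps down from left to right, and ITGB2 is lowest in the middle group.

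The genes whose pattern was most like that of ITGB7 were found by Pearson's r of the log2 values over the 9 libraries, among 10307 genes. Because the groups form clusters, r mostly reflects the group means and is a description only. The 6 highest were ACKR4 (r = 0.988), an atypical chemokine receptor that takes up CCL19, CCL21 and CCL25, followed by ERLEC1 (0.984), TRPV2 (0.982), CUX2 (0.982), KLHL13 (0.979) and OLFML2A (0.979). ACKR4 averaged 35.4 ± 6.04 in the wild type, 180 ± 5.52 in knockout cells and 33.4 ± 7.66 in the rescue. The 3 lowest were TRIB1 (-0.992), ZMYM2 (-0.990) and CHPT1 (-0.990). TRIB1, a pseudokinase, averaged 682 ± 57.4, 255 ± 16.0 and 680 ± 78.0. Of the other tested chains, ITGA4 had an r of 0.83 with ITGB7, ITGAL 0.79, ITGAE 0.68, ITGB2 0.20 and ITGB1 -0.16.

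The table held 25 integrin chains in all, 17 alpha and 8 beta, of which 16 are outside the set. Of those 16, 3 passed the filter: ITGA3, ITGA7 and ITGB3. ITGB3, the beta chain of the vitronectin and platelet fibrinogen receptors, stood at 34.5 ± 9.52 in the wild type, 109 ± 32.4 in knockout cells and 56.5 ± 12.1 in the rescue (n = 3 each). It rose 3.16-fold in the knockout (adjusted p = 0.00463, and 0.0965 without batch 1) and fell 1.93-fold in the rescue against the knockout (adjusted p = 0.0329). The latter call was lost without knockout library 1 or 2, rescue library 1 or 3, or any batch, with adjusted p up to 0.207. Both alpha partners of ITGB3 were near the counting limit, with ITGAV at 0 to 0.214 and ITGA2B at 0.0250 to 0.260 CPM. ITGA3, a laminin receptor chain that pairs with ITGB1, stood at 849 ± 131, 1235 ± 152 and 802 ± 207. It did not pass in the knockout against the wild type (adjusted p = 0.0578, and 0.0413 with the replicate block) and fell 1.54-fold in the rescue against the knockout (adjusted p = 0.0207). That fall was lost without knockout library 2 or 3 or rescue library 2 or 3, with adjusted p up to 0.223. ITGA7 was not called in any comparison, and the other 13 chains did not pass the filter.

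Among integrin activation and tail-binding proteins, which link the beta chain's tail to actin, 25 were tested. In the knockout 6 rose and none fell, and in the rescue against the knockout 8 fell and none rose, beside 5.36% of all tested genes called upward in the former comparison and 10.7% downward in the latter. Their median log2 difference was 0.14 and -0.14, beside 0.0048 and -0.0065 over all genes. With the replicate block the counts were 10 and 12, beside 21.5% and 31.2% of all genes called in either direction. At an unadjusted p under 0.05 in limma 14 were higher and 0 lower, then 0 higher and 12 lower. The share of all genes at that unadjusted threshold was not computed, so nothing is read from those counts. Against the wild type 1 of the 25 rose in the rescue, beside 2.3% of all tested genes called upward. This was ARHGAP45 (1.25-fold, adjusted p = 0.0132, lost without rescue library 1 or 3, up to 0.212 over all alternatives). FLNA, filamin A, which binds beta tails and crosslinks actin, rose 1.41-fold (adjusted p = 5.94e-05) and fell 1.45-fold in the rescue (adjusted p = 2.34e-05). ARHGAP45, a GTPase activating protein, rose 1.64-fold (adjusted p = 1.79e-05) and fell 1.31-fold (adjusted p = 7.54e-04). The talin TLN2 rose 2.10-fold (adjusted p = 0.00110). Those calls held under all alternatives run. VCL, vinculin, rose 1.29-fold (adjusted p = 0.0187), and this call was lost without wild-type library 1 or knockout library 1 or 3 (adjusted p up to 0.124 over all alternatives). In the rescue CIB1 fell 1.33-fold (adjusted p = 0.00296) and ITGB1BP1, which binds the ITGB1 tail, 1.23-fold (adjusted p = 0.00867, up to 0.138 without a batch). The list's members do different things: filamin competes with talin for beta tails, and talin and vinculin strengthen adhesion.

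Of the ligands, 9 of 16 listed were tested. In the knockout none rose and 2 fell, beside 5.36% and 7.37% of all genes. The median log2 difference was -0.10, beside 0.0048 over all genes. At an unadjusted p under 0.05 in limma 0 were higher and 3 lower, a threshold at which the share of all genes was not computed. ICAM3, a ligand of LFA-1 on leukocytes, fell 1.82-fold (896 ± 42.5 to 491 ± 66.5, adjusted p = 3.51e-04) and stayed at 500 ± 38.8 in the rescue (adjusted p = 0.00123 against the wild type, 0.0546 without batch 1). JAM2, a junction protein bound by ITGA4 with ITGB1, fell 2.64-fold (222 ± 56.0 to 84.1 ± 14.5, adjusted p = 0.00226) and rose 3.99-fold in the rescue against the knockout (adjusted p = 5.45e-05). In that comparison 2 ligands rose and 1 fell, beside 22.1% of all genes called. The ligands of ITGB7 itself were not tested in these cells: MADCAM1 was at or under 0.125 CPM and CDH1 at or under 0.573 CPM in every library.

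Of 9 tested partners at the membrane (tetraspanins and others that sit beside integrins), 1 fell in the knockout, and 4 rose and 1 fell in the rescue against the knockout, beside 12.7% and 22.1% of all genes called. With the replicate block 1 rose and 3 fell in the knockout, beside 21.5%. The median log2 difference was -0.07 and 0.05, beside 0.0048 and -0.0065 over all genes. The tetraspanin CD9, which binds ITGB1 complexes, stood at 575 ± 83.5 in the wild type, 539 ± 81.9 in knockout cells and 1539 ± 172 in the rescue. It rose 2.86-fold against the knockout (adjusted p = 1.44e-05) and 2.68-fold against the wild type (adjusted p = 1.03e-04), in all alternatives run. PLAUR, the urokinase receptor, fell 2.20-fold in the knockout (adjusted p = 0.00950) and rose 2.92-fold in the rescue (adjusted p = 5.54e-04). The knockout call of PLAUR was lost without batch 1 or batch 3 (adjusted p up to 0.135). CD81 fell 1.27-fold in the rescue against the knockout (adjusted p = 0.00353).

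Of 10 tested homing and trafficking genes, 1 rose and 2 fell in the knockout, and 2 rose and 2 fell in the rescue against the knockout, where 12.7% and 22.1% of all genes were called. With the replicate block 3 rose and 4 fell in the knockout, beside 21.5%. The median log2 difference was -0.05 and 0.04, beside 0.0048 and -0.0065 over all genes. S1PR4, a lymphocyte receptor for sphingosine-1-phosphate, stood at 70.0 ± 18.0, 485 ± 107 and 250 ± 84.2 in wild type, knockout and rescue. It rose 6.92-fold in the knockout (adjusted p = 9.61e-05) and fell 1.94-fold in the rescue (adjusted p = 0.0115, lost without batch 1 or batch 3, up to 0.0809). CD69, which holds lymphocytes in tissue by removing S1PR1 from the surface, stood at 195 ± 116, 24.9 ± 9.64 and 343 ± 125. It fell in the knockout (7.81-fold, adjusted p = 0.0212) and rose in the rescue (13.7-fold, adjusted p = 9.89e-04). The knockout call of CD69 was lost without wild-type library 1 or 3 or knockout library 1 or 2 (adjusted p up to 0.191 over all alternatives). GPR183, the oxysterol receptor that guides B cells, fell 2.27-fold in the rescue against the knockout (2578 ± 441 to 1138 ± 147, adjusted p = 2.42e-04).

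Of 18 tested regulators known to act on leukocyte integrin genes, 2 rose and 3 fell in the knockout, and 6 rose and 4 fell in the rescue against the knockout, with 12.7% and 22.1% of all genes called. With the replicate block 5 rose and 4 fell in the knockout, beside 21.5%. The median log2 difference was -0.03 in the knockout and 0.03 in the rescue against it, and 0.0048 and -0.0065 over all genes. TGFBR1, a receptor of TGF-beta, which induces ITGAE in T cells, stood at 552 ± 122, 275 ± 45.2 and 811 ± 118. It fell 2.01-fold (adjusted p = 0.00589, lost without batch 1 or batch 3, up to 0.0824) and rose 2.95-fold (adjusted p = 1.15e-04). SMAD7, an inhibitor of that pathway, rose 1.65-fold in the rescue against the knockout (adjusted p = 0.00103). NR3C1, the glucocorticoid receptor, rose 1.60-fold in the knockout (adjusted p = 0.00141) and fell 2.56-fold in the rescue (adjusted p = 1.03e-05). CEBPA, a myeloid transcription factor, fell 2.68-fold in the knockout (472 ± 78.2 to 176 ± 2.73, adjusted p = 1.44e-04).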

How the data were processed

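RNA-seq reads of Z138 were processed by the authors with DESeq2 1.24.0, R 4.3.2, kallisto 0.46.1, Trimmomatic 0.40 and FastQC 0.11.9, naming GRCh38.p13, per the submitters' processing notes, and deposited as log2 values for 16586 genes. Libraries used an unstranded or a stranded kit, per the labels' protocols, but not which library had which. The values lie on a variance-stabilized log2 scale with a shared lowest value, which was inverted to normalized counts (the constant was 388) and to CPM. Among low values of genes with a single transcript, 82.5% to 98.4% per library lay within 0.05 of a whole multiple of a step, taken as 1 read. Tests had been planned on log2 CPM and were run on the deposited log2 values, which understate the change of low genes.

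The test was limma 3.58.1 (R 4.3.3) with group means over all 9 libraries, a trended prior variance and Benjamini-Hochberg adjustment over the 11542 genes that reached 1 CPM in 3 or more libraries. 5044 genes were left out. The fit was run on simulated counts with the same spread setting for every gene and no replicate effect. That run cannot show how the fit handles libraries that vary by replicate number. Batch labels equal replicate numbers. Deviations of same-numbered libraries from their group means correlated at 0.187 to 0.51 in 9 pairs. Pairs with different numbers correlated at -0.387 to 0.159, so all lay lower, though the margin was small. The numbers were taken to pair the libraries. The planned main fit has no replicate block. The blocked value is given where it changed a call.

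The members, lists and tests were chosen with earlier results of these data known. Named genes were the members, other integrin chains, SOX11, the 6 most and 3 least similar patterns to ITGB7, ITGAL and ITGB2, and up to 5 called members of each list per comparison (some are not reported here); MADCAM1 and CDH1 were named as ligands of ITGB7. Alternatives were the replicate block, filters, pseudocounts, scalings, prior variance, the 2 groups alone, transcript length, and leaving out each library or batch. Positions are from GENCODE 29. Figures were drawn with matplotlib 3.10.9.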

Additional observations from a re-analysis of the deposited data

How the results depend on the processing

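With the replicate block, 2481 genes were called in the knockout against the wild type and 930 in the rescue against the wild type (1470 and 470 without it), and 2 tested chains other than ITGB7 in the rescue against the knockout (1 without it). The blocked fit changed no other call of a tested chain than those given beside ITGAE, ITGB1 and ITGA3. The stricter filter (CPM of at least 4) removed ITGAL and ITGB2 and left 1 chain called in the knockout and 1 in the rescue against the wild type, and a fit of only the 2 groups also gave 1 and 1. Quantile normalization gave 3 chains called in the rescue against the knockout. Leaving out each library in turn gave 938 to 1395 genes called in the knockout, 1738 to 2970 in the rescue against the knockout and 230 to 427 in the rescue against the wild type, with 1 to 3, 1 to 2 and 0 to 3 chains. Without batch 1 these gene counts were 575, 1167 and 146, without batch 2 1264, 2156 and 249, and without batch 3 574, 993 and 111; without batch 1 or 3 the chains called numbered 0 in the knockout, 1 in the rescue against the knockout and 0 in the rescue against the wild type. By the longest transcript the share of ITGB7 was 7.93%, 21.2% and 6.08%, and ITGB7 per ITGAE 0.401, 1.17 and 0.344, in wild type, knockout and rescue. The ITGB7 differences on the log2(CPM + 1) scale were 1.68 and -1.78, and with a pseudocount of 0.25 they were 1.74 and -1.85. The ITGA3 difference between rescue and wild type, uncalled at -0.06, ranged from -0.17 to 0.034 when each library was left out (positive without rescue replicate 3) and was 0.085 without batch 3. Of 50 calls of listed genes outside the set, 23 held in all alternatives, 27 were lost in at least 1, and 0 changed sign. Median log2 values of the 9 libraries differed by less than 0.1. The cause of a lost call was not tested. ITGAL and ITGB2 rest on low counts, and ITGAM, ITGAX and ITGA6 on too few reads to be tested.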

Other observations

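The 6 genes most like ITGAL over the 9 libraries were SGCE (r = 0.947), PIK3CB (0.942), MYO18A (0.934), CBX7 (0.932), GPR174 (0.927) and ACSL4 (0.924), and the 3 least like it were MYO1C (-0.958), HOMER1 (-0.955) and ZNF446 (-0.930). PIK3CB, a catalytic subunit of phosphoinositide 3-kinase, averaged 1164 ± 73.4 in the wild type, 1530 ± 109 in knockout cells and 1240 ± 69.4 in the rescue. The 6 genes most like ITGB2 were BIVM (0.956), MYADML2 (0.940), ZNF384 (0.937), FUNDC1 (0.931), PTGR2 (0.924) and NT5E (0.912), and the 3 least like it were BEND4 (-0.940), ZRSR2 (-0.934) and RAB9A (-0.925). NT5E, the surface enzyme CD73 that makes adenosine, averaged 34.8 ± 14.2, 60.1 ± 4.59 and 68.8 ± 4.43, and BEND4 2003 ± 263, 1014 ± 122 and 844 ± 72.6. These are descriptions over 9 libraries in 3 groups, with no test.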
